A study of Mus musculus with 2 samples.

Results

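The genes described here are 9 that are typical of Th17 cells and were read from the RNA of T cells grown towards the Th9 fate, namely Il17f, Il17a, Il21, Il22, Il23r, Rora, Ahr, Tmem176a and Tmem176b. They were found as the probes whose RefSeq accession belongs to one of these genes, which gave 12 probes for all 9, out of 18434 genes with a named probe. The list was drawn up with the signals of these arrays already known, so the differences of these 9 genes are a description and support nothing by themselves. Splenic CD4 T cells of wild type C57BL/6 mice, purified by magnetic sorting to over 98%, received T cell receptor and CD28 stimulation for 2 days and were kept for 3 more days. For the Th9 group the medium held 10 ng/ml IL-4, 3 ng/ml TGF-beta and 1 µg/ml of an antibody that neutralizes IFN-gamma. For the Th9+IFNgamma group it held 3 ng/ml IL-4, the same 3 ng/ml TGF-beta and 10 ng/ml IFN-gamma. TGF-beta, the strain and the stimulation were thus shared, while the IL-4 dose, the antibody and the added IFN-gamma changed together, and their parts cannot be told apart. Each group is 1 single-colour Agilent array, neither the age nor the number of mice behind a culture is given, and no value has a replicate or a test.

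Th17 cells are helper T cells that defend barrier surfaces and drive several autoimmune inflammations, and they arise when TGF-beta acts together with IL-6 or IL-21. Nuclear receptors of the ROR family, RORα (Rora) among them, act on the neighbouring genes Il17a and Il17f, IL-21 feeds back on the cells, and the IL-23 receptor sustains them. The aryl hydrocarbon receptor, Ahr, is a ligand-activated transcription factor that favours IL-22. IL-9 is made by cells given TGF-beta with IL-4, so the Th9 and Th17 fates share TGF-beta as an inducer.

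The start regions of Il17a and Il17f are printed because these neighbouring genes read differently on the arrays, that of Tmem176a and Tmem176b because these neighbours read alike, and that of Il21 because it holds an AHR core. The sequences are those of RefSeq on GRCm38.p6, a build other than the one named in the array headers. Il17a is given at chr1:20730655-20730904 on the plus strand, Il17f at chr1:20784271-20784520 on the minus strand and Il21 at chr3:37232637-37232886 on the minus strand, each as the 250 bases before the start. For the Tmem176 genes, which point away from each other, the stretch shown is the 108 bases at chr6:48841375-48841482, plus strand, between the nearest listed starts of Tmem176b (left) and Tmem176a (right). Capitals mark matches to any of 4 motifs on either strand. The first was AGGTCA, the core recognised by ROR receptors, and the second GCGTG, which AHR recognises. Next came TTCNNNGAA, recognised by STAT factors. The last was TATAAA, an element of many core promoters.
Il17a: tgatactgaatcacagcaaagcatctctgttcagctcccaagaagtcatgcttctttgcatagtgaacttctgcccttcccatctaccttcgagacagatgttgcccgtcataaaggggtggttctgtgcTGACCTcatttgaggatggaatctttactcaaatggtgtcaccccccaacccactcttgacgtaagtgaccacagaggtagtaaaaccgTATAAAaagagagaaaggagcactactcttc
Il17f: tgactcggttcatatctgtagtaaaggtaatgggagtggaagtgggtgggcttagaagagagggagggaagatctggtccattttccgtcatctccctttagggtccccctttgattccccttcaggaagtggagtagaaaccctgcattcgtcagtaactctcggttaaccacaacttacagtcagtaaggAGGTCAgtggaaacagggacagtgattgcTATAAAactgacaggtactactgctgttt
Il21: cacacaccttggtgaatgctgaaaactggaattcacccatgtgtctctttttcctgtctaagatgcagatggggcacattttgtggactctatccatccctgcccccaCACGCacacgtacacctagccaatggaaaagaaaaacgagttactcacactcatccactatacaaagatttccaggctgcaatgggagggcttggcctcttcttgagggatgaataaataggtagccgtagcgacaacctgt
Tmem176b-Tmem176a: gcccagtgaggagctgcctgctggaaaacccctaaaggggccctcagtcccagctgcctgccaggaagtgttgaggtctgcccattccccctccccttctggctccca

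AGGTCA stood once before Il17a, with its first base 120 bases before the start on the reverse strand, and once before Il17f, 58 bases before the start on the forward strand. It was found in 14.0% of all 32817 such 250-base windows. TATAAA stood 31 bases before the start of Il17a and 29 bases before that of Il17f, and 12.4% of windows hold it. GCGTG stood once before Il21, 142 bases from the start, against 28.1% of windows. The Tmem176 stretch, 63.9% G or C, held none of the 4 motifs, and neither did the 2 full windows of Tmem176a or the 3 of Tmem176b. TTCNNNGAA, found in 7.01% of windows, was in none of the 11 windows of the 8 genes that had one. Outside the printed sequences, Il23r had AGGTCA 2 times, 229 and 66 bases before its start, Rora had GCGTG at 167 bases and Il22 had TATAAA at 170 bases. Ahr had no window in the table. Motifs did not overlap in the printed sequences, and a match describes letters, not binding.

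Signals below are processed intensities after both arrays were scaled to the same 75th percentile (598.6), and each comparison is of 1 probe between the 2 arrays. A gene counts as measured where a probe was flagged well above background on both arrays. Where only 1 array passed, the difference is a bound. It sets the bright signal against whichever is larger on the dim array, the probe's own reading or the faintest signal still flagged well above background there (11.1 on the Th9+IFNgamma array, 12.5 on the Th9 array). Of the 9 genes, 5 were measured, 2 were detected on the Th9 array only and 2 on neither. All 5 measured genes were lower in Th9+IFNgamma by 2-fold or more, from 4.06-fold to 80.9-fold, against 7.42% of all 12272 measured genes, and all 5 were at least 4-fold lower, against 2.32%. Counting bounds too, 7 of the 9 were lower by at least 2-fold and 0 were higher. The other 2, detected on neither array, could not be called. Of 13227 genes detected on at least 1 array, a base without such genes, 8.6% were lower and 5.98% higher. As the list was chosen on this contrast, nothing is read from these counts. Lower signal in bulk RNA may come from fewer cells carrying a transcript or from less of it per cell, and the arrays cannot tell these apart. Among the alternative settings, normexp background correction, which adds an offset of 50 and so draws dim signals together, moved the most values. Its values are given where it moved a reported fold of 2 or more by over 1.5 times or took it below 2-fold. They were not computed for Il9, Cd163l1 or the genes named as closest in log2 difference.

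**Figure D1:**
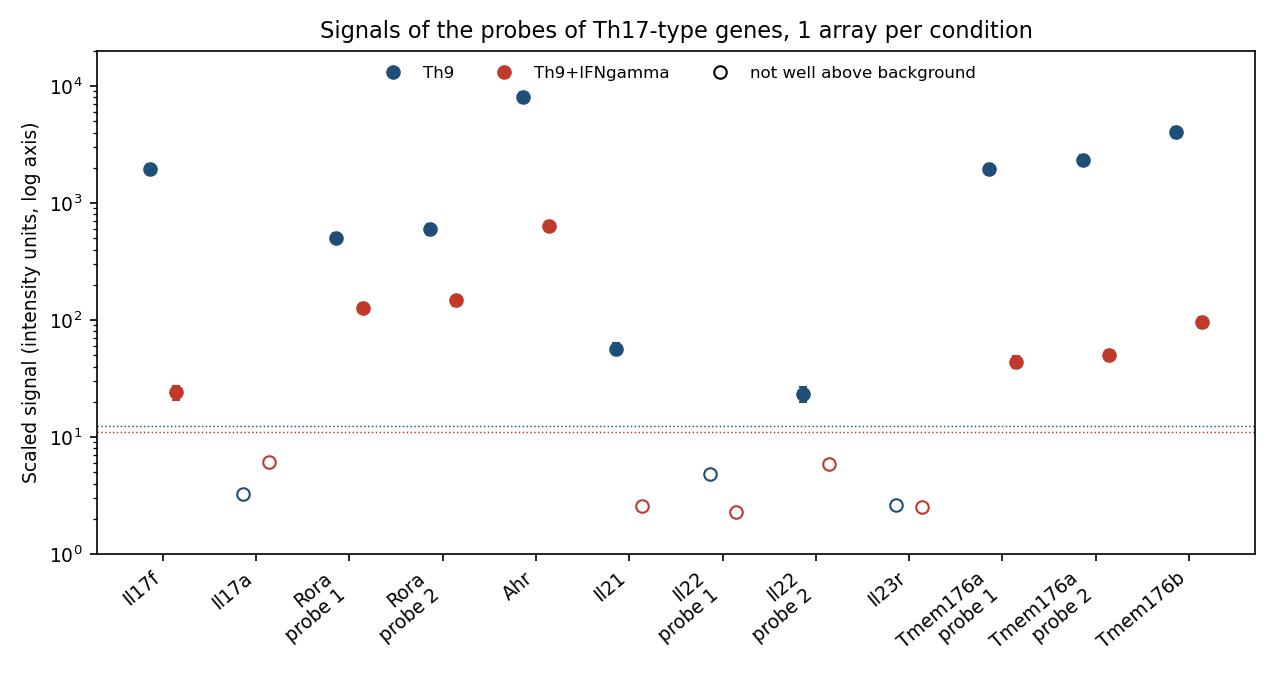
Scaled signal (log axis) of each of the 12 probes on the Th9 array (blue) and the Th9+IFNgamma array (red), with bars for the error given by the extraction software where a spot was well above background and open circles where it was not. Dotted lines are the lowest signals well above background, 12.5 for Th9 and 11.1 for Th9+IFNgamma, and the probes of Il17a and Il23r lie under them on both arrays while Il17f stands at 1948 and 24.1.

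Among the cytokines, Il17f encodes IL-17F, which acts on epithelium and stroma to recruit neutrophils. Its probe A_51_P519301 read 1948 (software error 195) in Th9 and 24.1 (software error 3.44) in Th9+IFNgamma. The signal was 80.9-fold lower in Th9+IFNgamma, a log2 difference of -6.34 with a software error of 0.25. This was the lowest log2 difference of all 12272 measured genes. With normexp it was 22.6-fold lower (signals of 1826 and 80.9) and ranked 7.

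Il17a, the gene next to it, encodes IL-17A, the cytokine from which Th17 cells take their name. Its probe A_51_P177904 read 3.28 in Th9 and 6.14 in Th9+IFNgamma, below the lowest signal well above background on each, so no fold is given. Il17f was therefore detected on the Th9 array without Il17a being detectable by its 1 probe there.

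Il21 encodes a cytokine that acts back on Th17 cells and also helps B cells. It read 56.8 (software error 6.43) in Th9, while its 2.58 in Th9+IFNgamma was not well above background. That sets Il21 lower by at least 5.12-fold, at position 60 among 484 genes detected on the Th9 array only. With normexp it shrank to at least 1.84-fold.

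Il22 encodes a cytokine that protects epithelium. Probe A_52_P177054 read 23.1 (software error 3.39) in Th9 and 5.90 in Th9+IFNgamma, the latter not well above background. Probe A_51_P232628 was not well above background on either, at 4.84 and 2.31. The first probe sets Il22 lower by at least 2.08-fold, and that bound fell under 2-fold with median scaling (1.92), quantile normalization (1.91) and normexp (1.39). Il22 has a near-identical copy, Iltifb, for which no probe was named here, so the RNA of either gene may have been read. Genes with such a bound of at least 2-fold towards Th9 made up 1.72% of the 13227 detected genes, and those with one towards Th9+IFNgamma 1.2%.

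Il23r encodes the IL-23-binding chain of the receptor that keeps Th17 cells going. Its probe read 2.62 in Th9 and 2.54 in Th9+IFNgamma and was well above background on neither. Its partner chain Il12rb1, shared with the IL-12 receptor, was well above background on both, at 6871 in Th9 and 10504 in Th9+IFNgamma (1.53-fold higher).

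Of the transcription factors, Ahr has a probe, A_51_P449133, that is printed 10 times on each array. On the Th9 array the 10 spots ran from 7729 to 8407 with a median of 8109.6, and on the Th9+IFNgamma array from 628 to 655 with a median of 639. The spots of the 2 arrays did not overlap, and their coefficients of variation were 2.79% and 1.55%. Ahr was 12.6-fold lower in Th9+IFNgamma, a log2 difference of -3.65. Spot by spot, that difference ran from -3.71 to -3.58 with an SD of 0.04, a spread of spots on a slide and not of mice or cultures. Ahr ranked 40 of 12272 by its log2 difference.

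Rora encodes RORα, a nuclear receptor that promotes the Th17 fate. Probe A_52_P652442 read 597 in Th9 and 147 in Th9+IFNgamma, and probe A_51_P477779 read 506 and 127. The probes gave 4.06-fold and 3.99-fold lower signals, a gap of 0.03 in log2 difference, within their combined software error of 0.29. Both arrays were well above background for both probes, and Rora kept the smallest difference of the 5 measured genes, at rank 275 of 12272.

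Tmem176a and Tmem176b encode related membrane-spanning proteins known from Th17-type lymphocytes and from dendritic cells. Tmem176a read 2325 in Th9 and 50.04 in Th9+IFNgamma by probe A_52_P515094, and 1957 and 44.1 by probe A_51_P258098. These are 46.5-fold and 44.4-fold lower signals. Tmem176b read 4019.9 in Th9 and 95.8 in Th9+IFNgamma, 42.0-fold lower. The log2 differences of the 2 genes, -5.54 and -5.39, lay 0.15 apart, within the combined software error of 0.30, and were the 3rd and 7th lowest of all measured genes. With normexp the folds were 21.9 for Tmem176a and 23.8 for Tmem176b.

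**Figure D2:**
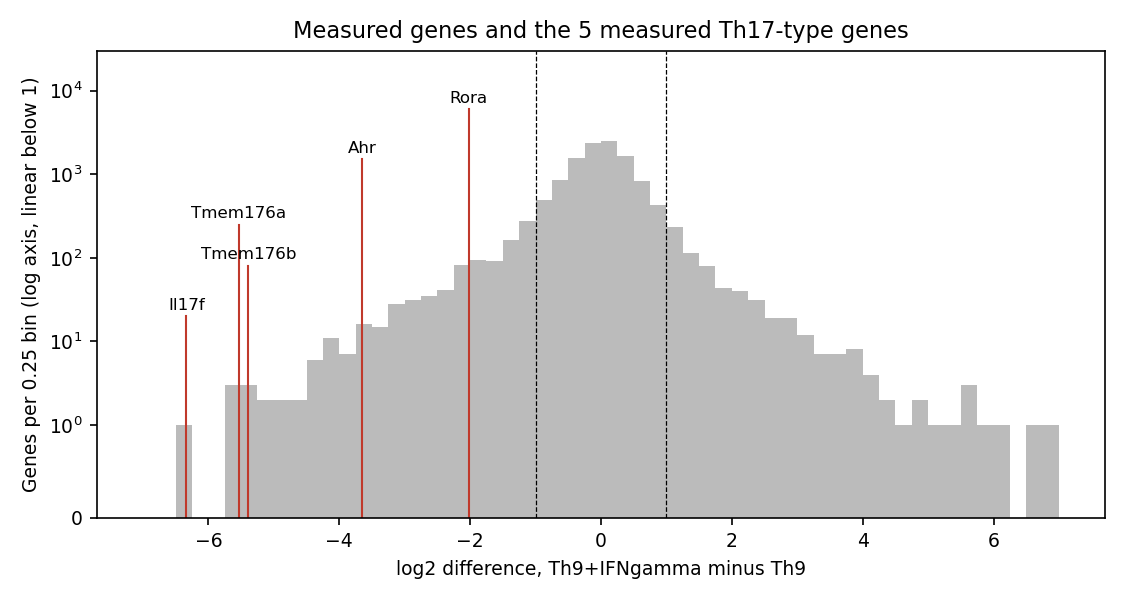
Number of genes (log axis, linear below 1) per 0.25 bin of log2 difference, Th9+IFNgamma minus Th9, over 12272 measured genes, with dashed lines at 2-fold and red lines at the 5 measured Th17-type genes, whose height only carries the label. Il17f forms the lowest filled bin, and Rora sits at -2.02 inside the lower tail.

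By the size of the log2 difference alone, over just 2 arrays, the genes closest to each measured one were the following. Rnf152 (-5.73) and Tmem176a were nearest to Il17f, Gatm (-5.52) and Ctsf (-5.43) to Tmem176a, and Map3k20 (-5.41) and Ctsf to Tmem176b. Myo1d (-3.65) and Gipc2 (-3.67) were nearest to Ahr, and Smad6 (-2.02) and Sobp (-2.02) to Rora. The gap was 0.61 for Rnf152 and at most 0.11 for the nearest genes of Tmem176a, Tmem176b, Ahr and Rora. Likeness of this kind is a single number per gene.

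The other genes of the Th17 programme were taken as a list of 25 regulators, receptors and products, of which 21 were measured. A drop of 2-fold or more in Th9+IFNgamma was seen for 12 of them (7.42% of all measured genes) and a rise of that size for 0 (5.15%). Their median log2 difference was -1.17, against -0.01 over all measured genes. This list and the lists below were also chosen with earlier results of these data known. Their counts and medians are therefore a description, and nothing is read from them.

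Il1r1, the receptor through which IL-1 promotes Th17 cells, was detected on the Th9 array only, at 114 against 2.32 in Th9+IFNgamma (at least 10.3-fold lower, 3.07-fold with normexp). Il10, an anti-inflammatory cytokine that Th17 cells can make, read 5798 in Th9 and 488 in Th9+IFNgamma (11.9-fold lower). Ltb4r1, a leukotriene B4 receptor, read 3948 and 389.8 (10.1-fold lower). Fosl2, an AP-1 factor, read 505 and 51.6 (9.78-fold lower, 4.32-fold with normexp).

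Ccr6, the chemokine receptor that marks Th17 cells, read 1081 in Th9 and 114 in Th9+IFNgamma (9.44-fold lower). Maf, a factor that promotes Il10 and Il21, read 4288 and 1117 (3.84-fold lower, and 3.95-fold by its other probe). Batf, an AP-1 partner needed for Th17 cells, read 20375 and 6016 (3.39-fold lower). Stat3, which carries IL-6, IL-21 and IL-23 signals, lay within 2-fold, at 12739 and 9081 (1.40-fold lower). Of the 21 measured genes, 18 had a log2 difference below 0, Stat3 among them, against 6188 of all 12272 measured genes. The higher ones were Il12rb1, given above, Ccl20, at 21.4 in Th9 and 35.7 in Th9+IFNgamma, and Gpr65, at 3137 and 3467. Past 2-fold downward were 12 of the 21, against 7.42% of all measured genes.

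**Figure D3:**
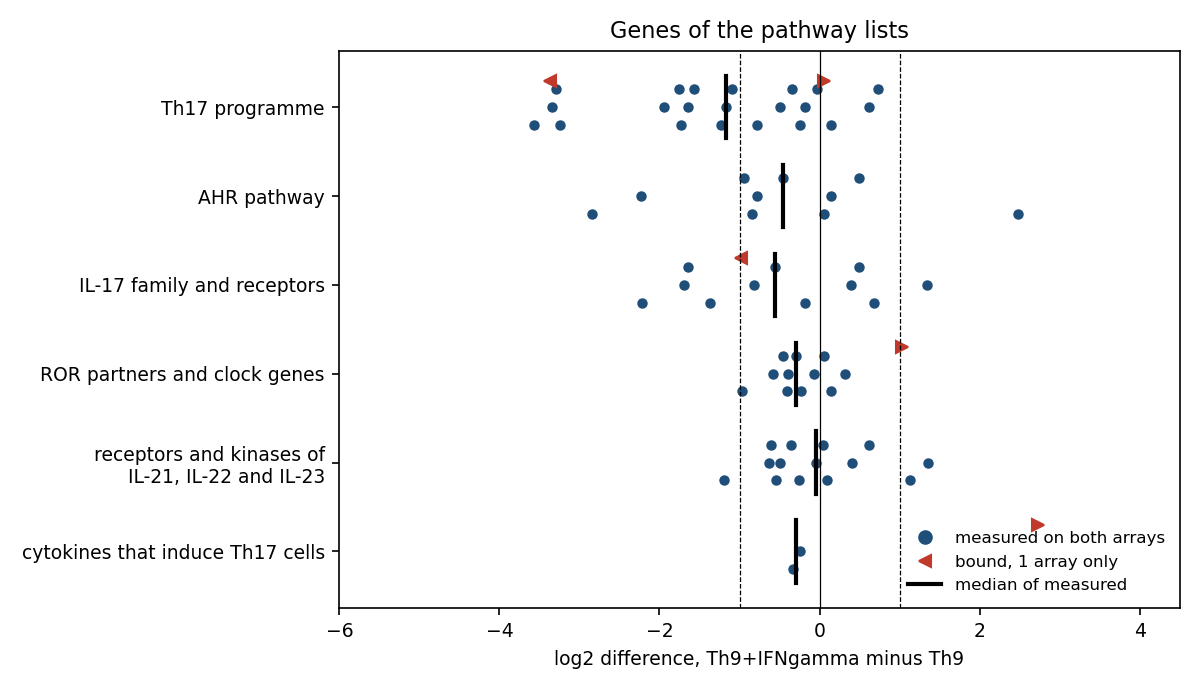
log2 difference, Th9+IFNgamma minus Th9, of measured genes (blue points) in 6 pathway lists, with bounds of genes detected on 1 array as red triangles, list medians as black bars and dashed lines at 2-fold. Medians are over all measured genes of a list. The Th17 programme has its median at -1.17, while the list of receptors and kinases centres at -0.04.

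In the AHR pathway, 11 of 15 listed genes were measured, and their median log2 difference was -0.46. A 2-fold threshold was passed by 2 downward and by 1 upward, against 7.42% and 5.15% of all measured genes. The 2 lower genes were Cyp1a1 and Cyp1b1, cytochrome P450 genes that are classical AHR targets. Cyp1a1 read 327 in Th9 and 45.7 in Th9+IFNgamma (7.15-fold lower, 3.73-fold with normexp), and Cyp1b1 read 191 and 40.6 (4.71-fold lower, 2.57-fold with normexp). Other targets lay within 2-fold, namely Tiparp at 4959 and 2569.9 (1.93-fold lower) and the AHR repressor gene Ahrr at 1840 and 1071 (1.72-fold lower). Arnt, the partner with which AHR binds DNA, read 519 and 290 (1.79-fold lower, 1.48-fold by its other probe). The higher gene was Nqo1, a quinone reductase under the control of both AHR and NRF2, at 21.2 in Th9 and 118 in Th9+IFNgamma (5.55-fold higher, 1.89-fold with normexp). Chaperone genes of the AHR complex, Hsp90aa1, Hsp90ab1 and Ptges3, were within 2-fold.

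In the IL-17 family with its receptors and targets, 11 of 20 listed genes were measured, with 4 past 2-fold downward (7.42% of all measured genes), 1 past it upward (5.15%) and a median log2 difference of -0.56. The downward count was 2 with normexp and 2 with a scaled signal of at least 100. The ligand gene Il17d read 157 in Th9 and 33.7 in Th9+IFNgamma (4.66-fold lower, 2.49-fold with normexp), whereas Il17b, Il17c and Il25 were well above background on neither array. Il17re, a receptor chain for IL-17C that Th17 cells carry, read 88.1 and 28.1 (3.13-fold lower, 1.68-fold with normexp). Il17rc, a receptor chain for IL-17A and IL-17F, read 54.5 and 21.1 (2.58-fold lower, 1.51-fold by its other probe and 1.42-fold with normexp). Cebpd, a transcription factor induced by IL-17, read 338 and 105 (3.22-fold lower). The common receptor chain Il17ra was within 2-fold, at 1218 and 1959 (1.61-fold higher). The higher gene, named after its value was seen, was Il17rd, 2.53-fold higher by 1 probe (1.50-fold with normexp) and 1.18-fold lower by the other. The target genes Lcn2, S100a8, S100a9, Cxcl1 and Cxcl5 were well above background on neither array.

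Among ROR partners and clock genes, 0 of 11 measured genes passed 2-fold downward (7.42% of all measured genes) and 0 upward (5.15%). The median log2 difference of these 11 was -0.29. Rorb, a relative of Rora, was well above background on neither array. Npas2, a clock factor, was detected on the Th9+IFNgamma array only, at 29.1, with a bound of at least 2.03-fold that was 1.10-fold with normexp. The nuclear receptors Nr1d1 and Nr1d2, which compete with ROR receptors for the same elements, were measured and within 2-fold.

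The receptors and kinases of IL-21, IL-22 and IL-23 had 15 of 16 listed genes measured, of which 1 passed 2-fold downward (7.42% of all measured genes) and 3 upward (5.15%), and their median of -0.04 took both signs over the alternative settings. Il21r, the receptor for IL-21, was within 2-fold at 8855 in Th9 and 6904 in Th9+IFNgamma (1.28-fold lower). Jak2, a kinase of the IL-23 receptor, read 5626 and 2461 (2.29-fold lower, 1.87-fold by its other probe). Stat4, a carrier of IL-12 and IL-23 signals (2.56-fold higher), and Il2rg, the common gamma chain (2.20-fold higher), were among the 3 higher genes.

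Of the 8 genes listed as cytokines that induce Th17 cells, 7 had a named probe. Of these 7, 4 were well above background on neither array, namely Il6, Il1a, Il1b and Il23a. Tgfb1 and Tgfb3 were within 2-fold. Tgfb2 was detected on the Th9+IFNgamma array only, at 83.2, at least 6.65-fold higher (2.04-fold with normexp).

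The genes beside these 9 on their chromosomes were read too, taking the nearest 2 protein-coding genes on each side. The 9 genes were chosen with this contrast known and their neighbours only by position, so nothing is read from a gap between them. Of 28 such neighbours outside the list, 24 had a named probe and 17 were measured. Of these 17, 1 passed 2-fold downward (7.42% of all measured genes) and 2 upward (5.15%), and their median log2 difference was -0.05. Next to Il17f, the replication gene Mcm3 read 5672 in Th9 and 6889.5 in Th9+IFNgamma (1.21-fold higher), and Paqr8, the gene after it, read 129 and 43.4 (2.98-fold lower, 1.81-fold with normexp).

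Ifng lies 2 protein-coding genes from Il22, with Iltifb between them. It read 951 in Th9 and 2005 in Th9+IFNgamma, 2.11-fold higher by that probe and 1.95-fold by the other, whereas the Il22 bound ran towards Th9. Mdm1, on the other side of Il22, was also higher (3.06-fold, 2.09-fold with normexp). Il2, the T cell growth factor gene next to Il21, was well above background on neither array. Il12rb2, the IL-12 receptor gene next to Il23r, read 375 and 401 (1.07-fold higher).

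On the side of the Tmem176 pair where Gimap3 and Gimap5 lie, genes for GTPases of lymphocytes, the signals were nearly equal. Gimap3 read 2928 in Th9 and 2924 in Th9+IFNgamma, and Gimap5 read 6404 and 7329.8. Around Rora, the 4 neighbours C2cd4a, Vps13c, Ice2 and Anxa2 were measured and within 2-fold. Next to Ahr, Agr3 was detected on the Th9 array only, with a bound of at least 2.72-fold lower (1.58-fold with normexp).

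**Figure D4:**
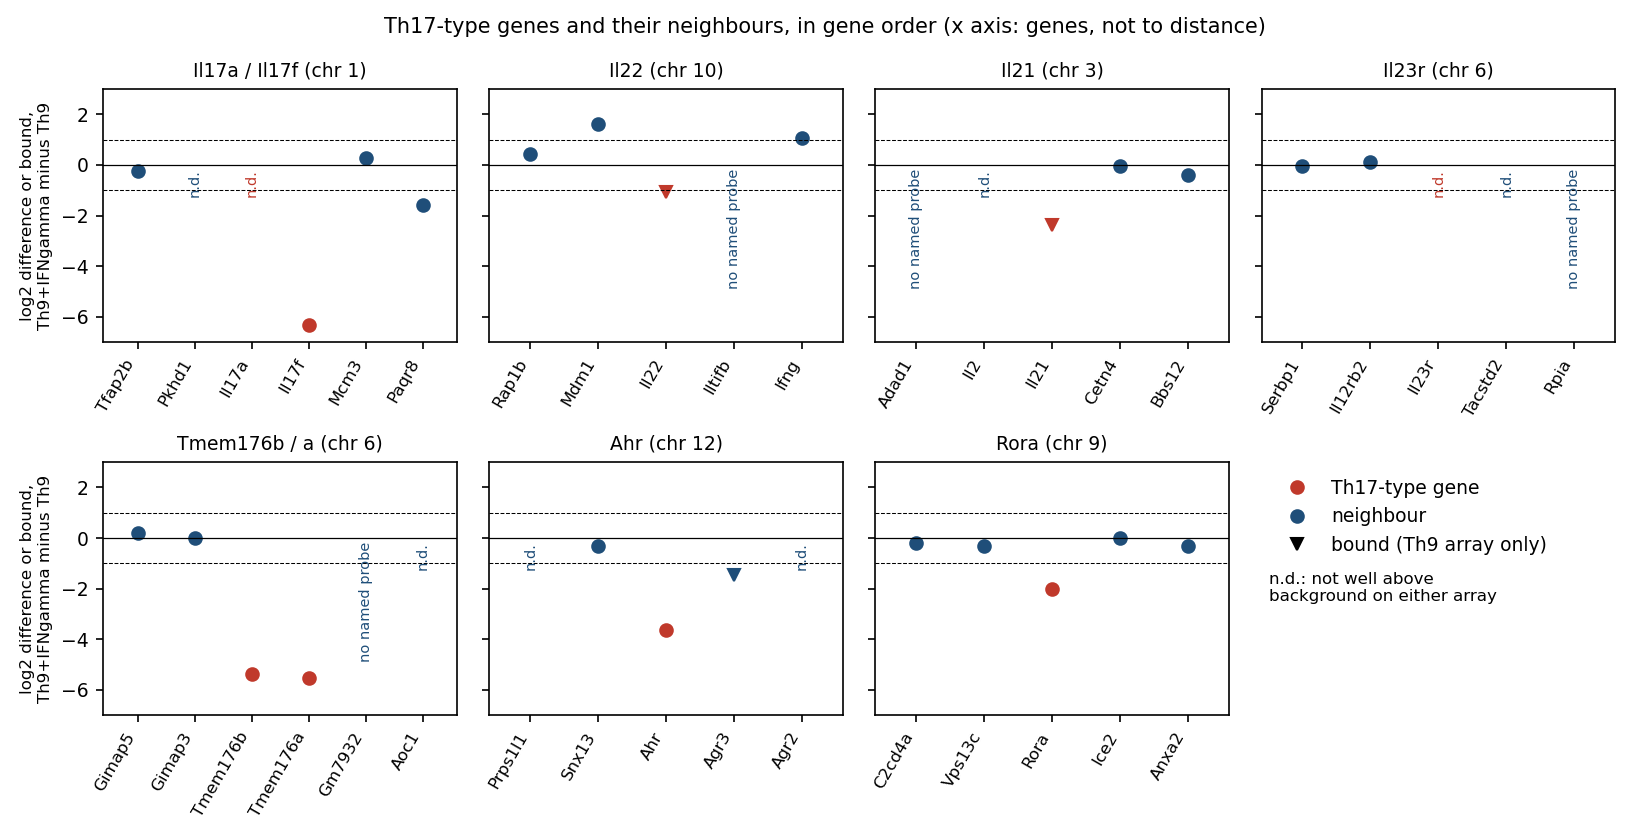
log2 difference, Th9+IFNgamma minus Th9, of the Th17-type genes (red) and their protein-coding neighbours (blue) in gene order at 7 loci, with triangles for bounds, dashed lines at 2-fold and text where a gene had no named probe or was not well above background (n.d.). Il17f, the Tmem176 pair, Ahr and Rora stand below neighbours that mostly lie between the dashed lines. The Th17-type genes were chosen with this contrast known, so nothing is read from that.

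Markers of the labelled cells and of other cells that can carry these transcripts were read on the same arrays. Il9, the cytokine that defines the Th9 culture, read 59618.5 in Th9 and 5661 in Th9+IFNgamma (10.5-fold lower). All 9 genes on the list for CD4 T cells, Cd4, Cd3e, Cd3d, Cd3g, Cd5, Cd28, Lck, Thy1 and Cd2, were measured and within 2-fold. Apart from Cd4, they are general T cell genes and do not set CD4 T cells apart from other T cells. Cd4 itself read 444 in Th9 and 502 in Th9+IFNgamma. Of the 5 genes with a probe on the list for gamma delta T cells, NKT cells and group 3 innate lymphoid cells, other producers of IL-17, Sox13, Blk and Ncr1 were well above background on neither array. Cd163l1 was detected on the Th9 array only, at 19.7 (at least 1.78-fold lower in Th9+IFNgamma), as was Il1r1. The summed signal of the list was 143 in Th9, mostly Il1r1. It was 19.8 in Th9+IFNgamma, where none of these 5 genes was well above background.

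Of 6 dendritic cell markers with a probe, which matter for the Tmem176 genes, 3 were measured and within 2-fold, Itgax, Siglech and Cd209a were well above background on neither array, and the list summed to 175 in Th9 and 156 in Th9+IFNgamma. Of 6 macrophage and monocyte markers, Lyz2, Itgam and Fcgr1 were well above background on neither array, and the sum was 249.96 and 94.9. Adgre1, at 186 and 25.8, was 7.19-fold lower (2.74-fold with normexp). Csf1r was nearly equal, at 34.3 in Th9 and 34.1 in Th9+IFNgamma, and Cd14 was higher within 2-fold, at 21.3 and 26.4. B cell markers, 3 of 6 measured and within 2-fold, summed to 1464 and 938, with Pax5 well above background on neither array and Cd22 at least 13.3-fold lower (3.28-fold with normexp). Of 4 NK cell markers, Ncr1 was well above background on neither array and Klra8 was 4.59-fold lower (1.84-fold with normexp). Within 2-fold were Klrb1c, at 39.2 in Th9 and 20.5 in Th9+IFNgamma, and Klrk1, which was higher, at 90.5 and 128. The NK cell list summed to 205 and 166. Mast cell and basophil markers summed to 149.9 and 78.6, with Mcpt8, Cpa3 and Ms4a2 well above background on neither array, Mcpt4 at least 9.10-fold lower (2.43-fold with normexp) and Fcer1a 2.22-fold higher (1.28-fold with normexp). Neutrophil markers with a probe, 3 in number, were well above background on neither array. Cd8a, the 1 CD8 marker with a probe, read 1074 and 1338. What part these markers had in the differences of the Th17-type genes was not tested.

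**Figure D5:**
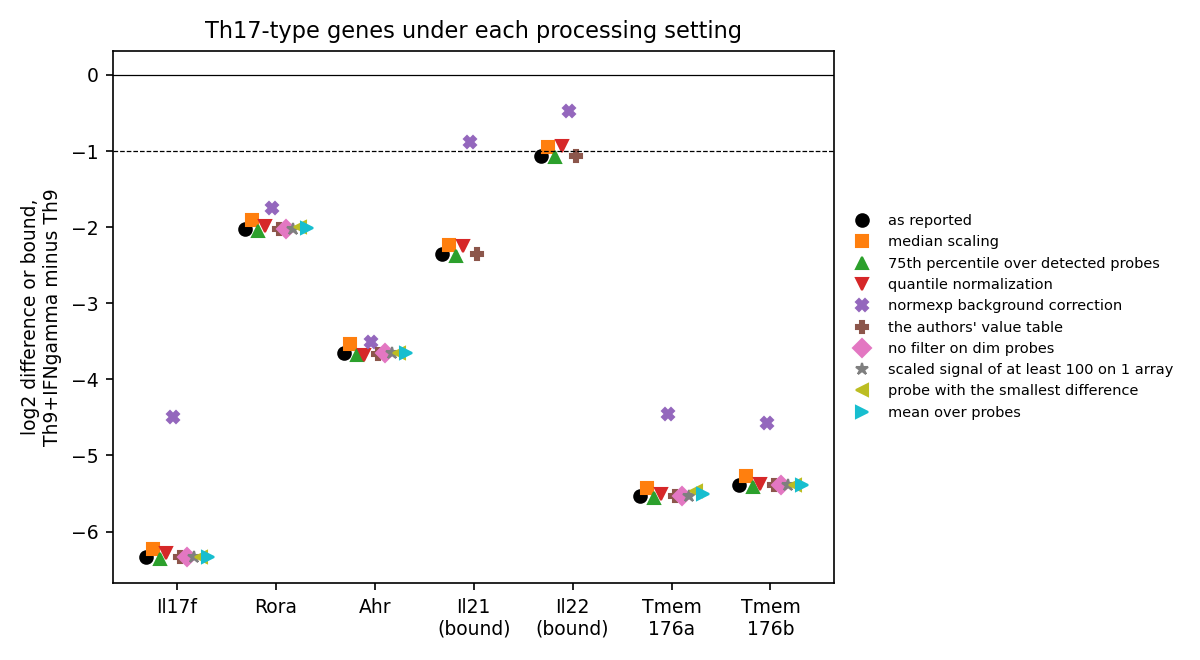
log2 difference, or bound for Il21 and Il22, of the Th17-type genes as reported (black) and under up to 9 alternative settings (coloured symbols), with a dashed line at 2-fold lower. The settings of a gene lie close together apart from normexp, which moves Il17f from -6.34 to -4.50 and Ahr, a bright gene, from -3.65 to -3.51, and takes the bounds of Il21 and Il22 above the dashed line, as median scaling and quantile normalization do for Il22.

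The 5 measured genes stayed past 2-fold under all 9 alternative settings. Ahr ranged from -3.68 to -3.51 over them and Rora from -2.05 to -1.75. The bounds of Il21 and Il22 were less stable, as given beside their values.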

How the data were processed

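Total RNA (500 ng) of each culture was labelled with Cy3 and read on 1 Agilent array, per the labels' protocols. The authors made the intensity values with Agilent's Feature Extraction software, version 10.7.3.1 by the headers of the deposited files and 10.7 in the submitters' processing notes. It subtracts background within an array. The deposited processed intensity was not scaled between the arrays, as their 75th percentiles differ by a ratio of 1.11. Both arrays carry the same slide and scan time in their headers. The authors' deposited log2 table equalled log2 of the median processed signal minus 1 constant per array, up to rounding (column medians -4.05 and -3.93), and served as an alternative. As intensities the constants were 631.70 for Th9+IFNgamma and 566.97 for Th9. They lay close to the 75th percentiles used here, 631.87 and 566.99. Other values per spot, the median and background intensity and the flags, are as deposited by the authors.

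Control spots and spots flagged as outliers (99 and 71) were left out, and no spot was saturated. log2 processed signals were averaged over a probe's spots and the array's 75th percentile (632 for Th9+IFNgamma, 567 for Th9) was subtracted. Probes were named by matching accessions, without version, to a RefSeq table of GRCm38.p6: 27050 of 41171 probes (65.7%) gave 18434 genes. Well above background were 60.6% and 59.9% of probes. A gene took its brightest probe well above background on both arrays. Names in the text follow a written rule: every member, up to 5 largest differences of each list, bounds of at least 2-fold, genes set in advance, and neighbours. Some listed genes that stayed within 2-fold or went the other way were also named, after their values were seen. Some genes of the lists count in the totals but are not reported or drawn here. The members and lists were chosen with earlier results of these data known. Scripts (Python 3.11.15, R 4.3.3, limma 3.58.1) were tested on simulated data. normexp used the median spot signal, since the files hold no mean signal. The number of arrays limits the precision, and the labels do not say whether cultures were repeated. Over 144 probes printed 10 times, spot differences had an SD of 0.14 in log2 (0.27 below a signal of 64). Sequences are RefSeq's, and 8 of the 9 genes matched the promoter table.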

Additional observations from a re-analysis of the deposited data

How the results depend on the processing

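Over 9 alternatives, 84 of 91 values for the Th17-type genes and list counts stayed within their error (for counts, within 1.5 times), 7 moved and 0 reversed. Under normexp, values on the log2 scale were -4.50 for Il17f, -1.75 for Rora, -4.45 for Tmem176a and -4.58 for Tmem176b, the bound of Il21 was -0.88, and 2 IL-17 family genes were at least 2-fold lower in place of 4. That count was also 2 with a scaled signal of at least 100. Of 309 values for other named genes, 29 moved, 23 of them with normexp, and 1 reversed, namely Il17rd at -0.24 by its probe with the smallest difference. Over all genes, 910 were at least 2-fold lower, against 582 with normexp and 1788 of 18434 with no filter on dim probes. At least 2-fold higher were 632, against 1205 with no filter. Median scaling moved the median of all genes from -0.01 to 0.11. Signals near 11.1 to 12.5, the lowest above background, limit Il21 and Il22. No paired analysis was possible because each condition has 1 array.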
